A study of Mus musculus with 3 samples.

Results

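The miR-106b~25 cluster comprises miR-106b, miR-93 and miR-25, 3 hairpins that lie close together within an intron of Mcm7. Each hairpin yields a 5p and a 3p mature arm, so the cluster has 6 mature miRNAs. They were chosen here by name, with earlier results of these data known. All 6 were among the 1138 mature mouse miRNAs listed in the small RNA libraries. The libraries came from tibialis anterior (TA) muscles of WT C57BL/6 mice taken at day 0 or else 1 or 3 days following an injection with cardiotoxin (CTX), which kills myofibers while sparing most muscle stem cells. The labels give an age of 10 weeks for every group and CTX at 10 mM in 30 mL, while the study's methods give micromolar and microlitre units. The study describes day 0 muscles as uninjured, and the labels mention saline as the control injection without saying which muscles received it. At each day 4 samples were pooled into 1 library, so the spread between mice could not be measured. Each difference below compares single libraries, has no replicate check and has no p-value.

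Mature miRNAs guide Argonaute proteins to messenger RNAs, mainly by pairing of the seed, bases 2 to 8 counted from the 5′ end. The Mcm7 protein is a subunit of the helicase that unwinds DNA for replication, and the gene is a target of the E2F factors that drive entry into the cell cycle. The cluster is a paralog of the miR-17~92a cluster, known for promoting proliferation and survival, and of the miR-106a~363 cluster. The miR-17 seed family is known to act on the cell cycle inhibitor p21 and on the pro-apoptotic protein Bim. Injured muscle is a tissue in which stem cells divide, but cell division was not measured in these libraries.

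Names of mouse miRNAs carry the prefix mmu-, left out below where the arm is clear. The 6 mature sequences carry the grouping used below, so they are given in full, 5′ to 3′, from RefSeq (GRCm38.p6), with the seed in capitals. RefSeq held a sequence for 953 of the 1138 listed names.
mmu-miR-106b-5p: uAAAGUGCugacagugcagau
mmu-miR-93-5p: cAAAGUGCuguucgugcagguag
mmu-miR-25-3p: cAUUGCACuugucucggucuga
mmu-miR-106b-3p: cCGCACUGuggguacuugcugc
mmu-miR-93-3p: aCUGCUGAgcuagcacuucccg
mmu-miR-25-5p: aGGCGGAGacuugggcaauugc

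miR-106b-5p and miR-93-5p share the seed AAAGUGC, that of the miR-17 family, and were identical at 16 of 21 positions when aligned from the 5′ end. miR-25-3p carries AUUGCAC, the seed of the miR-92 family. The seeds of miR-106b-3p, miR-93-3p and miR-25-5p were found in no other listed miRNA with a RefSeq sequence. The single cluster thus produces abundant arms with 2 different seeds.

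In GRCm38.p6 the hairpins lie on the minus strand of chromosome 5. Mir106b is at chr5:138165737-138165818, Mir93 at chr5:138165523-138165610 and Mir25 at chr5:138165321-138165404. In the order of transcription, 126 bases separate Mir106b from Mir93 and 118 bases separate Mir93 from Mir25, and the whole cluster spans 498 bases. The host gene Mcm7 (ENSMUSG00000029730.16) occupies chr5:138164583-138172422 on the same strand. All 3 hairpins fall in intron 13 of the Mcm7 transcript with 15 exons, and this intron (chr5:138165162-138165909) is 748 bases long. In the GENCODE M21 annotation Mir93 and Mir25 also overlap an exon of a retained-intron transcript of Mcm7, whereas Mir106b does not. Mcm7 mRNA was not measured in these small RNA libraries.

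**Figure D1:**
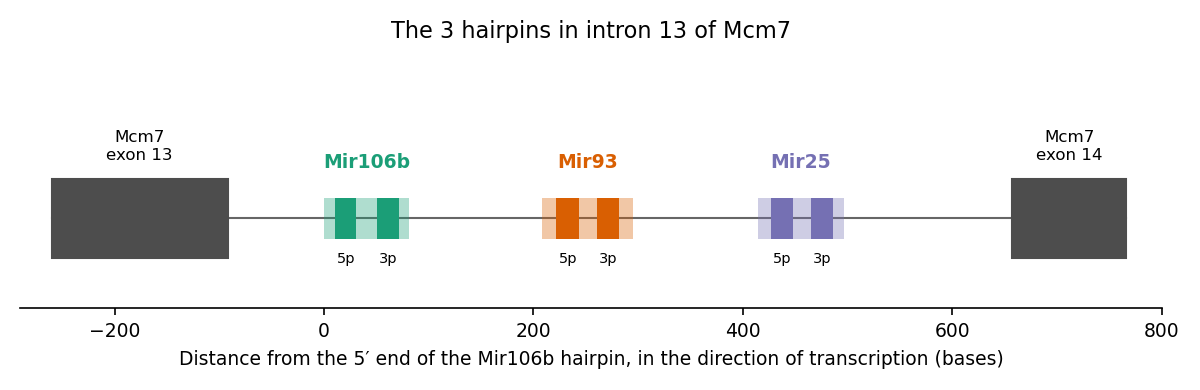
Map of intron 13 of the Mcm7 transcript with 15 exons, drawn in the direction of transcription, with distance in bases from the 5′ end of the Mir106b hairpin. Pale boxes are the hairpins, dark boxes within them the 5p and 3p arms, and grey boxes the flanking exons. The 3 hairpins span 498 of the 748 bases of the intron.

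The day 0, day 1 and day 3 libraries held 8507580, 6421056 and 9795076 reads, and levels are given as CPM, counts per 1000000 reads of the library. A count of 3 reads, taken as the smallest detectable level, equals 0.353, 0.467 and 0.306 CPM in that order. Intervals are 95% intervals for counting error only and treat every read as independent. PCR copies are not independent molecules, so the intervals may be too narrow even for counting error. The 10 miRNAs with the most reads held 73.5%, 59.4% and 62.3% of the libraries, so the CPM of other miRNAs moves with them. The defining myofiber miRNA miR-1a-3p was present at 233587 (day 0), 73841 (day 1) and 88096 CPM (day 3), so the labelled tissue's marker was there in each library. In whole muscle, more cells of a type that carries a miRNA and more of that miRNA per cell cannot be told apart.

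The cluster was higher in both injured libraries than in uninjured muscle, and highest on day 1. Its 6 arms together had 4653, 22501 and 25050 reads on days 0, 1 and 3, or 546.9, 3504 and 2557 CPM. The summed level was 6.41-fold higher on day 1 than on day 0 (log2 fold change 2.68, interval 2.63 to 2.73) and 4.68-fold higher on day 3 (2.23, interval 2.18 to 2.27). From day 1 to day 3 it was lower by a log2 fold change of -0.45 (interval -0.48 to -0.43). In the other deposited column, a score that may count distinct tags, this difference was smaller, at -0.17. Over all miRNAs with at least 100 reads, the median for these days was 0.29 with the score and 0.01 with reads. The raw reads were most numerous on day 3 because that library was the deepest, whereas the share of reads was largest on day 1.

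mmu-miR-93-5p held most of the cluster's reads at every time point. Its reads numbered 3952, 18295 and 21384 on days 0, 1 and 3, equal to 464.5 CPM (interval 450.3 to 479.2), 2849 CPM (2808 to 2891) and 2183 CPM (2154 to 2213). Its rank among the 1138 miRNAs went from 76 to 45 and then 48. The log2 fold change against day 0 was 2.62 (interval 2.57 to 2.67) on day 1 and 2.23 (2.18 to 2.28) on day 3, and day 3 stood below day 1 at -0.38 (-0.41 to -0.36).

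mmu-miR-25-3p, the cluster's member of the miR-92 seed family, was the next most abundant arm. Its reads were 595, 3550 and 2957 on days 0, 1 and 3, equal to 69.9 CPM (interval 64.5 to 75.8), 552.9 CPM (535.0 to 571.4) and 301.9 CPM (291.2 to 313.0). The day 1 level was 7.91-fold that of day 0 (log2 fold change 2.98, interval 2.86 to 3.11), and the day 3 level 4.32-fold (2.11, interval 1.98 to 2.24). Of the 3 abundant arms it lay furthest below its day 1 level on day 3, with a log2 fold change of -0.87 (interval -0.94 to -0.80).

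mmu-miR-106b-5p, the arm nearest the 5′ end of the cluster, shares the miR-93-5p seed but was far less abundant. It had 95, 565 and 596 reads on days 0, 1 and 3, equal to 11.2 CPM (interval 9.14 to 13.6), 88.0 CPM (81.0 to 95.6) and 60.8 CPM (56.2 to 65.9). The log2 fold change against day 0 was 2.98 (interval 2.66 to 3.29) on day 1 and 2.45 (2.13 to 2.76) on day 3. Day 3 was lower than day 1 by a log2 fold change of -0.53 (interval -0.70 to -0.37). With the deposited score the differences between day 3 and day 1 were smaller, at -0.10 for miR-93-5p, -0.55 for miR-25-3p and -0.21 for miR-106b-5p, and lay outside the counting intervals given above. The median over all miRNAs was also higher with the score, at 0.29 beside 0.01 in reads. The order miR-93-5p, miR-25-3p, miR-106b-5p held in all 3 libraries, with no overlap of the counting intervals between neighbours.

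The other 3 arms were rare and did not reach the minimum of 100 reads over the 3 libraries that was used for counts of changed miRNAs. mmu-miR-106b-3p had 3, 31 and 14 reads on days 0, 1 and 3, or 0.353, 4.83 and 1.43 CPM. mmu-miR-93-3p had 3, 50 and 44 reads, or 0.353, 7.79 and 4.49 CPM. For mmu-miR-25-5p the reads were 5, 10 and 55, or 0.588, 1.56 and 5.62 CPM. On day 0 both miR-106b-3p and miR-93-3p sat at the 3-read limit, and the intervals of these 3 arms overlapped. On day 1 miR-25-5p (interval 0.846 to 2.87 CPM) lay below miR-106b-3p (3.40 to 6.85), which overlapped miR-93-3p (5.91 to 10.3). On day 3 miR-106b-3p (0.851 to 2.40) was the lowest, and miR-93-3p (3.35 to 6.03) and miR-25-5p (4.31 to 7.31) overlapped.

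For these rare arms the folds have wide exact intervals. On day 1 against day 0 the log2 fold change was 3.78 (2.09 to 6.13) for miR-106b-3p and 4.46 (2.83 to 6.79) for miR-93-3p, while the interval of miR-25-5p included 0 (1.41, interval -0.28 to 3.30). On day 3 against day 0 the values were 2.02 (0.18 to 4.46), 3.67 (2.03 to 6.00) and 3.26 (1.95 to 4.93) in the same order. From day 1 to day 3, miR-106b-3p (-1.76, interval -2.78 to -0.80) and miR-93-3p (-0.79, interval -1.41 to -0.18) were lower. miR-25-5p went the other way and was higher (1.85, interval 0.86 to 2.99). It was the single arm of the 6 with its highest level on day 3.

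**Figure D2:**
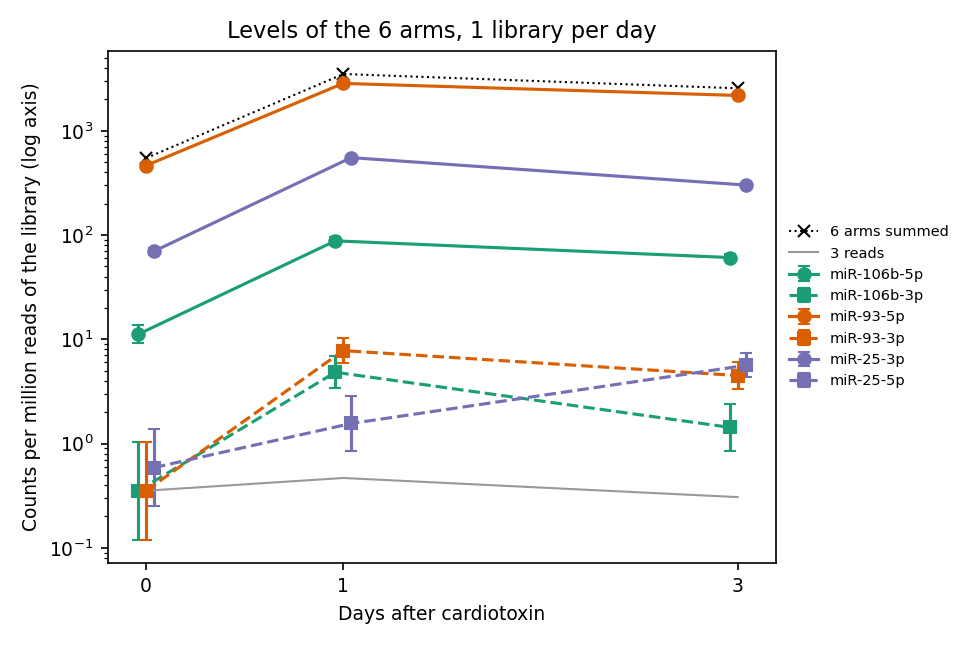
Level of each of the 6 arms and of their sum in CPM (log axis) against days after CTX, 1 library per day; error bars are 95% counting intervals, and the grey line marks 3 reads. Solid lines are the abundant arms, which peak on day 1, and dashed lines the rare arms, of which miR-25-5p is highest on day 3 at 5.62 CPM.

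The members were then counted beside all miRNAs that reached 100 reads over the 3 libraries. miR-93-5p, miR-25-3p and miR-106b-5p reached this minimum, and miR-106b-5p was under 100 reads on day 0 itself. On day 1 all 3 of these arms were at least 2-fold higher than on day 0, and 0 were at least 2-fold lower. Among the 394 miRNAs compared, 52.8% were higher and 10.9% lower. On day 3 the counts were again 3 higher and 0 lower, beside 57.3% higher and 10.9% lower among 396 miRNAs. Between day 1 and day 3, 0 of the 3 passed 2-fold in either direction, beside 23.2% higher and 15.4% lower on day 3. Higher levels after injury were therefore common among miRNAs at this scaling and are not particular to the cluster.

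The size of the change can be read against the same background. The median log2 fold change of these miRNAs was 1.08 on day 1 and 1.43 on day 3 against day 0, and 0.01 for day 3 against day 1. The cluster sum stood 1.60 above the median on day 1 and 0.80 above it on day 3, and its change from day 1 to day 3 was -0.46 relative to the median. miR-106b-5p exceeded the median by 1.90 and 1.02 on days 1 and 3, miR-25-3p by 1.90 and 0.68, and miR-93-5p by 1.54 and 0.81. On day 1 the change of miR-25-3p was above that of 82.0% of the miRNAs, that of miR-106b-5p above 81.7% and that of miR-93-5p above 77.7%. On day 3 these positions were 65.2%, 69.9% and 67.7%. The cluster was thus in the upper part of the distribution on day 1 and nearer the middle on day 3. For day 3 against day 1, the position of miR-25-3p was 18.4%, that of miR-106b-5p 28.0% and that of miR-93-5p 33.3%. Scaling that lowers the median also lowers the changes from day 0. With median-of-ratios factors the median on day 3 was 0.31, and miR-25-3p on day 3 fell just short of 2-fold (log2 fold change 0.99).

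The balance between the 3 hairpins was next examined within each library, where it does not depend on scaling between libraries. The miR-93 hairpin contributed 85.0% (interval 83.9 to 86.0), 81.5% (81.0 to 82.0) and 85.5% (85.1 to 86.0) of the cluster's reads on days 0, 1 and 3. The miR-25 hairpin gave 12.9% (12.0 to 13.9), 15.8% (15.4 to 16.3) and 12.0% (11.6 to 12.4). The miR-106b hairpin gave the remaining 2.11% (1.73 to 2.56), 2.65% (2.45 to 2.87) and 2.44% (2.25 to 2.63). The miR-25 share was thus highest on day 1, outside the intervals of the other libraries, and the day 0 and day 3 compositions overlapped for each hairpin.

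The same shift was seen between single arms. The number of miR-93-5p reads for each miR-25-3p read was 6.64 (interval 6.09 to 7.24), 5.15 (4.97 to 5.34) and 7.23 (6.96 to 7.52) on days 0, 1 and 3. miR-25-3p per miR-93-5p was 1.29-fold higher on day 1 than on day 0 (interval 1.17 to 1.41), and its day 3 value was 0.713 times that of day 1 (interval 0.676 to 0.751). Between day 0 and day 3 the ratio differed by a factor of 0.918, with an interval of 0.836 to 1.01 that included 1. miR-25-3p per miR-106b-5p was 6.26, 6.28 and 4.96 on days 0, 1 and 3, so the 2 arms moved together to day 1 (ratio change 1.00, interval 0.794 to 1.27). miR-106b-5p per miR-93-5p was 1.28-fold higher on day 1 than on day 0 (interval 1.03 to 1.62). Among these 3 pairs of arms the largest change of a ratio between any pair of libraries was 1.40-fold, for miR-93-5p per miR-25-3p from day 1 to day 3 (interval 1.33 to 1.48).

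Within each hairpin the dominant arm was the same in all 3 libraries. The rarer arm of miR-106b, the 3p arm, held 3.06% (interval 1.05 to 8.62), 5.20% (3.69 to 7.29) and 2.30% (1.37 to 3.82) of the hairpin's reads on days 0, 1 and 3. That of miR-93, also the 3p arm, held 0.0759% (0.0258 to 0.223), 0.273% (0.207 to 0.359) and 0.205% (0.153 to 0.276). In miR-25 the 5p arm is the rare one, with 0.833% (0.356 to 1.94), 0.281% (0.153 to 0.516) and 1.83% (1.41 to 2.37). A single hairpin of the cluster, miR-25, is thus read mainly from its 3p arm.

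The arms of miR-25 changed in opposite directions between days 1 and 3. There were 355 reads of miR-25-3p for each read of miR-25-5p on day 1 and 53.8 on day 3. The 5p to 3p ratio was 6.60-fold higher on day 3 than on day 1, with an exact interval of 3.33 to 14.6. This rests on 10 reads of miR-25-5p on day 1 and 55 on day 3, and the ratio on day 0, from 5 reads, could not be separated from either (day 1 against day 0 0.335, interval 0.104 to 1.25; day 3 against day 0 2.21, interval 0.888 to 7.11). For miR-106b the 3p to 5p ratio on day 3 was 0.428 times that of day 1 (interval 0.208 to 0.840). For miR-93 the day 3 to day 1 factor was 0.753, with an interval of 0.490 to 1.15 that included 1.

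**Figure D3:**
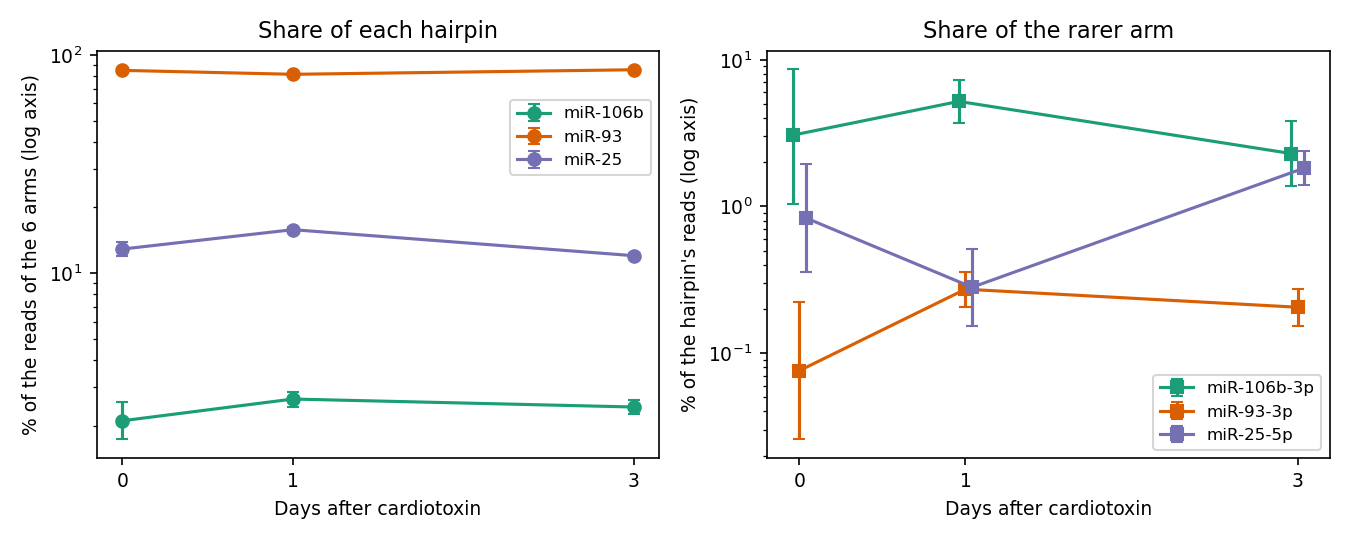
Left, percentage of the cluster's reads from each hairpin; right, percentage of each hairpin's reads from its rarer arm, both on log axes against days after CTX, with 95% Wilson intervals. The miR-25 hairpin peaks at 15.8% on day 1, while its rare 5p arm goes from 0.281% on day 1 to 1.83% on day 3.

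miRNAs with the same seed can pair with the same sites, so the cluster was set beside its seed families. Apart from miR-106b-5p and miR-93-5p, the miR-17 seed was carried by miR-17-5p and miR-20a-5p of the miR-17~92a cluster on chromosome 14 and by miR-20b-5p and miR-106a-5p of the miR-106a~363 cluster on chromosome X. Their sequences differ from the cluster arms outside the seed.
mmu-miR-17-5p: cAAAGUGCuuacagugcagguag
mmu-miR-20a-5p: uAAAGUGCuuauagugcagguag
mmu-miR-20b-5p: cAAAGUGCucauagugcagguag
mmu-miR-106a-5p: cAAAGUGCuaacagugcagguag

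Aligned from the 5′ end, miR-17-5p, miR-20a-5p and miR-106a-5p were each identical to miR-106b-5p at 18 of 21 positions and to miR-93-5p at 19 of 23, and miR-20b-5p at 17 of 21 and 20 of 23. How reads that match more than 1 of these miRNAs were counted is not given in the sources used here, so the split between them is uncertain to that extent.

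The cluster supplied most reads with the miR-17 seed at every time point. The family had 4458, 20907 and 26791 reads on days 0, 1 and 3, and the cluster's share was 90.8% (interval 89.9 to 91.6), 90.2% (89.8 to 90.6) and 82.0% (81.6 to 82.5). The share was lower on day 3 than in the other libraries. The other members together had 411, 2047 and 4811 reads, a log2 fold change of 2.72 on day 1 and 3.35 on day 3 against day 0, and of 0.62 (interval 0.55 to 0.70) from day 1 to day 3. From day 1 to day 3 the cluster arms with this seed were lower while the other members, summed, were higher.

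miR-20a-5p had 289, 1426 and 3560 reads on days 0, 1 and 3, and was higher on day 3 than on day 1 by a log2 fold change of 0.71 (interval 0.62 to 0.80). miR-17-5p had 105, 564 and 1203 reads and was also higher on day 3 than on day 1 (0.48, interval 0.34 to 0.63). Cluster arms and these arms from chromosome 14 were set against each other. The ratio of miR-93-5p to miR-20a-5p differed between day 0 and day 1 by a factor of 0.938, with an interval of 0.823 to 1.07 that included 1. On day 3 that ratio was 0.468 times its day 1 value (interval 0.439 to 0.499). miR-106b-5p and miR-17-5p had nearly equal reads on day 1, 565 and 564, whereas on day 3 the ratio of miR-106b-5p to miR-17-5p was 0.495 times as large (interval 0.425 to 0.576). miR-20b-5p, with 17, 55 and 46 reads, was lower on day 3 than on day 1 (-0.87, exact interval -1.46 to -0.28), as the cluster arms were. miR-106a-5p had 0, 2 and 2 reads, under the detection limit.

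The seed of miR-25-3p was shared by miR-92a-3p, which comes from 2 loci, one in each paralogous cluster, and by miR-363-3p, miR-92b-3p and miR-32-5p. The closest of them in sequence was miR-92a-3p, identical to miR-25-3p at 18 of 21 positions, and miR-32-5p, transcribed from chromosome 4, matched at 13 of 22.
mmu-miR-92a-3p: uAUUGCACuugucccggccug
mmu-miR-92b-3p: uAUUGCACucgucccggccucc
mmu-miR-32-5p: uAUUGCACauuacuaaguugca
mmu-miR-363-3p: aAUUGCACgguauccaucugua

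In this family the cluster was a minor source. Of 9951, 29657 and 46526 family reads on days 0, 1 and 3, miR-25-3p made up 5.98% (interval 5.53 to 6.46), 12.0% (11.6 to 12.3) and 6.36% (6.14 to 6.58). miR-92a-3p had 9033, 25228 and 42021 reads, with log2 fold changes of 1.89 (interval 1.85 to 1.92) on day 1 and 2.01 (1.98 to 2.05) on day 3 against day 0. The ratio of miR-25-3p to miR-92a-3p was 2.14-fold higher on day 1 than on day 0 (interval 1.95 to 2.34). By day 3 it was lower than on day 1 by a factor of 2.00 (interval 1.90 to 2.10), and it differed from day 0 by a factor of 1.07 with an interval of 0.975 to 1.17. The cluster's share of this seed was thus highest on day 1.

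The rarer family members were mixed. miR-92b-3p had 58, 263 and 232 reads and, like miR-25-3p, was lower on day 3 than on day 1 (-0.79, interval -1.04 to -0.54). miR-32-5p had 248, 564 and 1262 reads and was higher on day 3 than on day 1 (0.55, interval 0.41 to 0.70). For miR-363-3p, with 17, 52 and 54 reads, the exact interval of the day 3 to day 1 change included 0 (-0.55, interval -1.13 to 0.02).

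**Figure D4:**
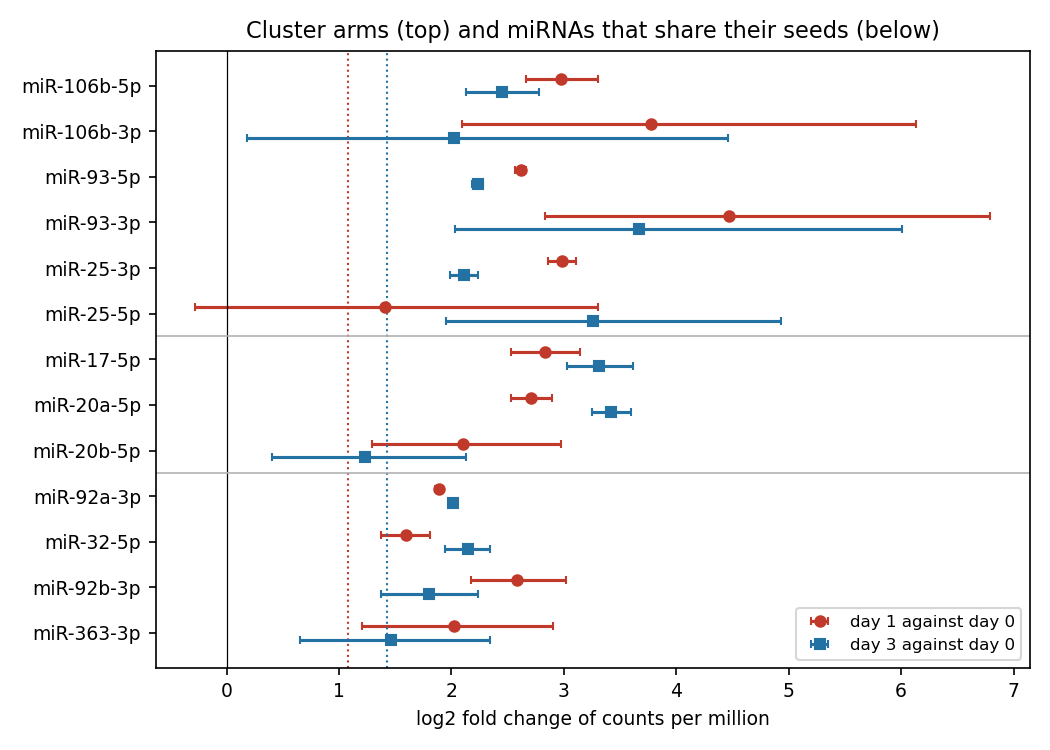
Log2 fold change of CPM on day 1 (circles) and day 3 (squares) against day 0 for the 6 cluster arms (top), the miR-17 seed mates (middle) and the miR-92 seed mates (bottom), with exact 95% counting intervals; dotted lines are the medians of all miRNAs with at least 100 reads, 1.08 and 1.43. The abundant cluster arms lie higher on day 1, while miR-17-5p and miR-20a-5p lie higher on day 3.

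**Figure D5:**
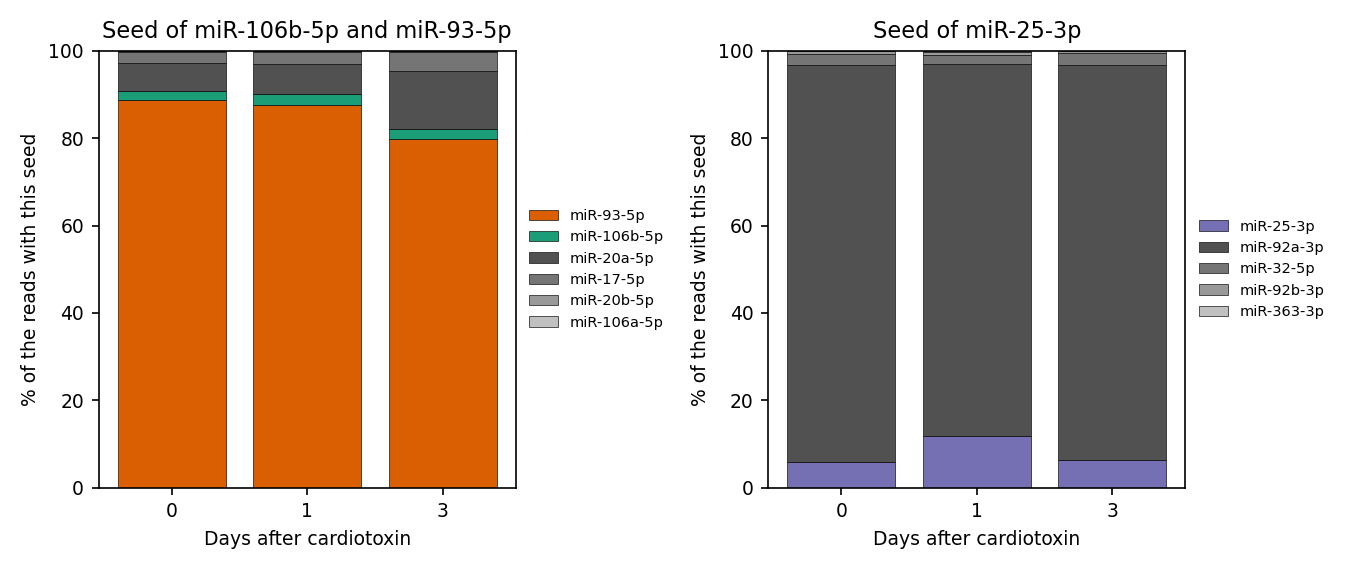
Percentage of all reads carrying the miR-17 seed (left) and the miR-92 seed (right) that came from each miRNA, by days after CTX. miR-93-5p and miR-106b-5p together make up 90.8%, 90.2% and 82.0% of the left bars, and miR-25-3p 5.98%, 12.0% and 6.36% of the right bars.

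The paralogous miR-17~92a cluster was described as a whole for comparison. Of its 12 named arms, 11 were listed and 9 reached 100 reads over the 3 libraries, most of them with under 100 reads on day 0. Of these, 9 were at least 2-fold higher on day 1 and 9 on day 3, beside the 52.8% and 57.3% given above. The median log2 fold change of these 9 arms was 3.11 on day 1 and 3.42 on day 3. The summed reads of the listed arms were 10400, 34053 and 55738, with lower log2 fold changes against day 0 of 2.12 and 2.22, beside 2.68 and 2.23 for the sum of the miR-106b~25 cluster. Of these reads, miR-92a-3p supplied 9033, 25228 and 42021 and miR-19b-3p 877, 5712 and 5940. RefSeq gives each of these 2 arms a further locus in the miR-106a~363 cluster, so their reads cannot be assigned to 1 cluster. The 6 arms of the miR-106b~25 cluster had 0.447, 0.661 and 0.449 reads for each summed read on days 0, 1 and 3. Without the 2 shared arms, left out after their values were seen, the ratios were 9.50, 7.23 and 3.22, so the direction from day 0 to day 1 turned with those arms. For the miR-106a~363 cluster, 6 of 10 named arms were listed, with 37, 131 and 111 reads in all. This sum does not include miR-92a-3p or miR-19b-3p.

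Other miRNAs with a similar time course were named by their distance to the cluster sum. The distance was Euclidean over the 2 log2 fold changes against day 0, among 223 other miRNAs with at least 1000 reads over the 3 libraries. The nearest was miR-340-5p, with 486.7, 2707 and 1828 CPM and a distance of 0.377. It was followed by miR-320-3p (0.456), miR-19b-3p, an arm of both paralogous clusters (0.542), miR-467e-5p (0.570) and miR-146a-5p (0.663). The members themselves lay at 0.0634 for miR-93-5p, which dominates the sum, 0.324 for miR-25-3p and 0.371 for miR-106b-5p. With 3 libraries this ordering describes these values alone.

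Markers of other cell types changed over the same days. The 4 leukocyte miRNAs (both arms of miR-223 and miR-142a) summed to 145.6, 10497 and 3332 CPM on days 0, 1 and 3. All 4 were at least 2-fold higher than day 0 on both days, beside 52.8% (day 1) and 57.3% (day 3) of all miRNAs. The 3 erythroid miRNAs (miR-451a and both arms of miR-144) summed to 7145, 25335 and 12564 CPM. The 7 myofiber miRNAs went from 35.4% of reads to 14.4% and 11.8%. On each day 5 of the 7 were at least 2-fold lower than on day 0, beside 10.9% of all miRNAs with at least 100 reads. On day 3 miR-208b-3p was higher, but with 4, 1 and 10 reads. From day 1 to day 3 miR-1a-3p was higher (73841 and 88096 CPM), while miR-378a-3p was lower (57213 and 22260 CPM). The pair miR-206-3p and miR-133b-3p, which mark activated and differentiating muscle cells, went from 1.36% to 0.503% and then 18.2%. Nearly all of the day 3 value was miR-206-3p (180001 CPM), and miR-133b-3p had 1240, 246.8 and 1644 CPM on days 0, 1 and 3. The 4 vessel miRNAs held 9.43%, 19.7% and 8.41% of reads, and the 4 epithelial miRNAs summed to 25.6, 197.0 and 115.8 CPM. The sums of the leukocyte, erythroid, vessel and epithelial lists were, like the cluster, highest on day 1. The epithelial sum was mostly miR-200c-3p (158.1 CPM on day 1), while miR-203-3p was highest on day 3 (18.9, 27.1 and 32.6 CPM). The vessel sum was 2.08-fold higher on day 1 than on day 0, close to the median of all miRNAs (log2 fold change 1.08). All 7 myofiber and all 4 leukocyte miRNAs had at least 1 read in every library. With the deposited score scaled to its total, the leukocyte, erythroid, vessel and myofiber lists differed less between day 0 and day 1. The myofiber list held 15.8%, 10.5% and 8.26%, and miR-206-3p with miR-133b-3p held 2.83%, 0.918% and 4.96%, a smaller difference between day 0 and day 3 than in reads. The leukocyte list held 0.0475%, 1.83% and 0.819%, the erythroid list 1.70%, 2.85% and 1.96%, and the vessel list 9.61%, 10.5% and 6.98%. The part of these cell types in the levels of the cluster was not tested.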

How the data were processed

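RNAs of 18 to 30 nucleotides from TA muscle were sequenced by the authors, with 4 samples pooled into 1 library for each of days 0, 1 and 3. The submitters' processing notes name HISAT, Bowtie2 and GRCm38.p6. The counting tool and its treatment of reads that match several miRNAs are not given in the sources used here. The authors deposited for each library a raw read count for each mature miRNA. The deposited expression column is treated as a score, since how it was made is not given. It never exceeded the count and fell further short of it for abundant miRNAs, so it may count distinct tags. In that case the read counts of abundant miRNAs may hold more PCR copies than those of rare ones, and the closing section gives the folds from the score.

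Counts were divided by the library total to give CPM. Adapter ligation depends on the RNA's ends, so reads compare a miRNA between libraries better than 2 miRNAs within one. With 1 library per day no replicate model was fitted. Folds have Wald intervals, exact conditional intervals for the arms with few reads, and CPM and shares Wilson intervals. Ratios of arms between days are odds ratios. A changed miRNA had at least 100 reads over the 3 libraries and a fold of 2, with 0 reads set to 3. Named miRNAs were the 6 members, those sharing a seed, the paralogous clusters and the 5 with the nearest time course. Members and lists were chosen with earlier results of these data known. Positions came from GENCODE M21 and sequences from RefSeq.

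Alternatives were edgeR 4.0.16 TMM and DESeq2 1.42.0 median-of-ratios factors (scaling only), totals without the top 10 miRNAs, the score, a pseudocount of 1 CPM, minimums of 10 and 1000 reads, a fold of 4, shares from the main arm of each hairpin and, added after the data were seen, the paralog ratio without arms of 2 loci and marker sums from the score. Software was R 4.3.3 and Python 3.11.15 with scipy 1.17.1, pandas 2.3.3, numpy 2.4.6 and matplotlib 3.10.9, and the fold calculation was tested on simulated data. The authors' FDR calls, RT-PCR and knockout experiments were not used here.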

Additional observations from a re-analysis of the deposited data

How the results depend on the processing

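The direction of every member's change against day 0 was the same in 60 of 60 alternative values (log2 fold changes 0.36 to 3.85), and from day 1 to day 3 in 30 of 30. All of these values come from the same 3 libraries, so the equal directions do not replace replicates. The size depended on the scaling. For the cluster sum, the log2 fold change on day 1 against day 0 was 1.74 (TMM), 1.64 (median-of-ratios), 2.06 without the top 10 miRNAs and 1.96 with the deposited score; on day 3 against day 0 these were 1.30, 1.11, 1.72 and 1.79. From day 1 to day 3 it was -0.53 with median-of-ratios factors, -0.35 without the top 10 and -0.17 with the score. These scalings moved the median of all miRNAs by -0.94, -1.04, -0.62 and -0.64 on day 1 and by -0.93, -1.12, -0.51 and -0.40 on day 3, and the share of all miRNAs at least 2-fold higher and lower to 31.2% and 24.4% (TMM), 29.4% and 26.4% (median-of-ratios), 38.8% and 20.1% (without the top 10) and 37.3% and 19.0% (score) on day 1, and to 38.1% and 24.5%, 34.6% and 27.3%, 47.2% and 17.7%, and 50.5% and 14.6% on day 3. A factor moves every miRNA alike, so distances from the median are not altered by it. The score is not such a factor. With it, on day 1 against day 0, the cluster sum stood at 1.96 and the median at 0.44. For day 3 against day 1 the median was 0.29 with the score and 0.01 in reads. With median-of-ratios factors 2 arms were at least 2-fold higher on day 3, since miR-25-3p stood at 0.99. At a threshold of 4-fold, 3 arms were higher on day 1 and 3 on day 3, beside 30.5% and 36.9% of all miRNAs. With a minimum of 10 reads, which lets the rare arms in, 6 arms were higher on day 1, 6 on day 3, and 1 higher and 1 lower on day 3 than on day 1, beside 54.5%, 57.4%, 23.9% and 18.5% of all miRNAs at that minimum. The rare arms reach it mainly through the injured libraries, and the interval of miR-25-5p on day 1 included 0. With the score, the hairpin shares on day 1 and day 3 were 2.88% and 2.70% for miR-106b, 80.2% and 84.1% for miR-93, and 16.9% and 13.2% for miR-25; the score falls short of the count for abundant miRNAs (87.9% of the reads for miR-93-5p on day 3), and the cause was not tested. No paired analysis was possible because each day has 1 pooled library, so there was also no replicate to leave out. Depth limits the rare arms, which had 3 to 5 reads on day 0.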
